A study of Mus musculus with 2 samples.

Results

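Arg1-high spots are the positions on a spatial transcriptomics slide at which arginase 1 reached at least 1000 counts per 1000000 transcripts counted (CPM). They were chosen by the Arg1 counts themselves. The spots came from 2 sections of mouse cerebellum injected with tumor organoids, and a spot had to lie under tissue and carry at least 2000 unique molecular identifiers (UMIs, each standing for 1 captured probe molecule). By this rule 371 of 7423 spots were Arg1-high, 122 of 3406 in section 1 and 249 of 4017 in section 2. The reference was the 231 spots with fewer than 100 Arg1 CPM that lay within 3 steps of an Arg1-high spot on the hexagonal array, called nearby Arg1-low here, 88 in section 1 and 143 in section 2. The 844 spots between these limits within 3 steps are called intermediate, and the 5620 spots over 3 steps away are called distant.

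Each section came from 1 mouse whose cerebellum had been injected with organoids grown from an HP mouse mammary tumor, in which HP stands for a human HER2 transgene with V777L together with PIK3CA H1047R. The transgene sits behind an actin promoter and a lox-STOP-lox element and was switched on by Cre adenovirus injected into the mammary gland of the donor mouse. The organoid cells also carried a luciferase label, and the recipients were immunocompetent adult C57BL/6 mice. Both sections are labeled with genotype HP and no treatment, so the study's group is the same in both and the comparisons run between places within a section. The titles call the organoids HP-F1 +cre in section 1 and HP-B6 +cre in section 2. No uninjected or sham-injected cerebellum is analysed here.

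Arginase 1 splits arginine into ornithine and urea. In macrophages it draws on the arginine that T cells and nitric oxide synthase also use, and it is a standard marker of macrophages exposed to IL4, IL13 or products of dying cells. Brain tumors are commonly entered by macrophages from the blood, whereas microglia, the resident macrophages of the brain, are recognized by genes such as Tmem119 and P2ry12. A spot covers several cells, so transcripts of different cells are summed in it, and fewer cells of a type cannot be told apart from less RNA per cell.

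The sections held 63986887 and 71878333 UMIs over 19465 genes. The probes for the human transgene and luciferase are not analysed here, so tumor cells could be recognized only through epithelial markers. These were present in section 2 and close to absent in section 1. Over 11 measured epithelial genes, among them Epcam, Krt8 and Cdh1, the summed level in the Arg1-high spots was 63.7 CPM in section 1 and 5608 CPM in section 2. Epcam, a surface protein of epithelial cells, had 6.36 against 7.64 CPM in section 1 and 878 against 567 in section 2 in the Arg1-high against the nearby Arg1-low spots (log2 fold change 0.41 ± 0.34, adjusted p = 0.643 in edgeR's quasi-likelihood test, on the scale used for the gene comparison). Section 1 instead had collagen genes: the 8 fibroblast genes summed to 25459.5 CPM in its Arg1-high spots and 738 CPM in those of section 2. The granule neuron genes of the cerebellum were measured in both, with 890.3 and 1970.4 summed CPM in distant neural-rich spots. The spots were therefore described as tissue rich or poor in neural transcripts rather than as brain and tumor, and whether the border between them was an invading one was not tested. A spot was called neural-rich where the summed CPM of 28 neuron and oligodendrocyte genes lay above an automatic (Otsu) threshold of its section, and neural-poor otherwise. The sections shared 3096 spot barcodes, which are array positions of the slide type and not cells.

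The Arg1-high spots lay where neural-rich and neural-poor tissue met. In section 1, 97 of them were neural-rich and 25 neural-poor, and in section 2, 163 and 86. The nearest spot of the other tissue class was a median of 2 steps away in section 1 and 1 step in section 2. From the nearby Arg1-low spots the medians were 6 and 3 steps, and from the distant spots 16 and 14 steps. Within 2 steps of the other tissue class lay 71.3% and 86.7% of the Arg1-high spots, 3.41% and 33.6% of the nearby Arg1-low spots and 1.13% and 3.45% of the distant spots.

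They were gathered in few places. Spots in contact with each other formed 6 groups in section 1, the largest of 47, 46 and 18 spots, and 21 groups in section 2, the largest of 71, 44 and 42 spots. The 4 largest groups held 97.5% and 75.5% of the Arg1-high spots. Only 1 spot in section 1 and 10 in section 2 touched no other Arg1-high spot. In section 1 the groups formed a band along the neural-poor tissue, and in section 2 they followed its outline on several sides.

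**Figure D1:**
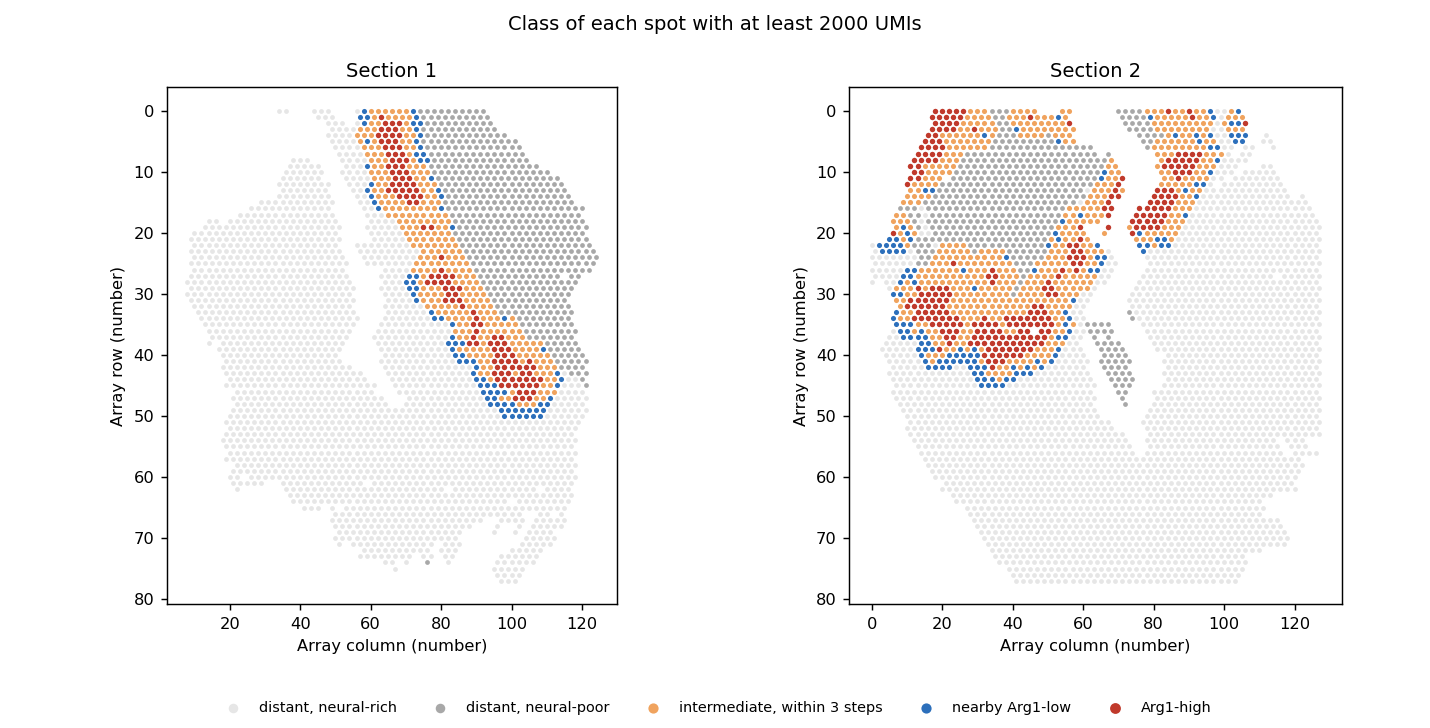
Array row against array column (spot numbers) for the spots with at least 2000 UMIs in each section, colored by class. The 122 Arg1-high spots of section 1 form a band beside the neural-poor tissue, and the 249 of section 2 lie around its outline, with the nearby Arg1-low spots mostly on the neural-rich side.

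Arg1 itself chose the spots, so its levels are given without a test. In section 1 the Arg1-high spots ranged from 1012 to 3559 CPM with a median of 1458 CPM, from 8 to 91 Arg1 UMIs each. In section 2 they ranged from 1000.1 to 10615 CPM with a median of 2031 CPM, from 3 to 262 UMIs each. The values just inside the threshold were 1012 and 1000.1 CPM, and the highest just outside were 983 and 998 CPM, so the spots near the threshold form no gap. The Arg1-high spots were 3.86% and 6.38% of the spots with at least 2000 UMIs and held 44.2% and 52.2% of all Arg1 UMIs of their section, although they held 4.1% and 7.59% of all UMIs. The distant spots held 9.85% and 20.0% of the Arg1 UMIs, with single spots up to 666 and 887 CPM. In section 2 distant neural-poor spots had 237 Arg1 CPM, above the 70.2 CPM of nearby neural-poor Arg1-low spots. In section 1 these levels were 23.5 and 56.9 CPM. Of the nearby Arg1-low spots, 46 of 88 and 76 of 143 had no Arg1 UMI. The median depth was 19739 UMIs in the Arg1-high spots of section 1 and 13798 in its nearby Arg1-low spots, and 18736 and 16006 in section 2.

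For the comparison of all genes, the UMIs of each class were summed within each section, which gave 1 value per class and section, and 18245 genes were tested with edgeR with the section as a block. A gene is called changed where its adjusted p was below 0.05 and its level differed more than 2-fold (1 on the log2 scale). Of the genes tested, 278 (1.52%) changed, 146 (0.8%) higher and 132 (0.723%) lower in the Arg1-high spots. Among these 278 genes, Crabp1 and Krt17, named after their values were seen, had no UMI in these classes of one section. The other 276 moved in the same direction in both sections, which passing a fit over 2 sections nearly requires. The classes were cut from Arg1 counts in the same spots, so the test asks which other genes followed Arg1 in both mice. CPM values below are scaled by TMM factors, which correct for differences in library composition, errors are standard errors of the log2 fold change, and n = 2 sections.

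The genes with the largest increase included proteases, chemokines, a clotting factor and proteins of fat storage. Mmp12, the macrophage elastase that degrades elastin, had 858 against 44.1 CPM in section 1 and 555 against 19.4 in section 2 (log2 fold change 4.53 ± 0.61, adjusted p = 0.0253), a 23.2-fold difference. Spot by spot, a random Arg1-high spot exceeded a random nearby Arg1-low spot in Mmp12 CPM in 98.1% of pairs in section 1 and 86.8% in section 2. Ccl6, a chemokine that recruits macrophages, had 665 against 60.7 CPM in section 1 and 1548 against 77.5 in section 2 (log2 fold change 3.95 ± 0.38, adjusted p = 0.0109). F10, which encodes coagulation factor X, had 80.3 against 7.64 CPM in section 1 and 35 against 2.68 in section 2 (log2 fold change 3.55 ± 0.44, adjusted p = 0.0154). The nearby Arg1-low level of F10 in section 2 lay near the floor. Mmp12, Ccl6 and F10 were picked for large changes in the same direction in both sections, so the agreement of the sections follows from the choice.

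Hilpda, a protein of lipid droplets that slows fat breakdown under hypoxia, had 140.3 against 18 CPM in section 1 and 73.3 against 9.39 in section 2 (log2 fold change 2.96 ± 0.27, adjusted p = 0.0109). Gpnmb, a membrane glycoprotein of lipid-loaded macrophages, had 2110.0 against 571 CPM in section 1 and 2428 against 243 in section 2 (log2 fold change 2.73 ± 0.45, adjusted p = 0.0353). Gpnmb was the one of these whose nearby Arg1-low level was already over 200 CPM in both sections. Also among the 12 with the largest increase were the fatty acid carrier Fabp4 (2.97 on the log2 scale), the death receptor homolog Tnfrsf26 (2.88), the C-type lectin Clec4d (2.84), the chemokines Ccl9 (2.80) and Ccl2 (2.74), which attract monocytes, and the neutrophil collagenase Mmp8 (2.78). Their adjusted p-values in the edgeR test lay between 0.0198 and 0.0344.

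**Figure D2:**
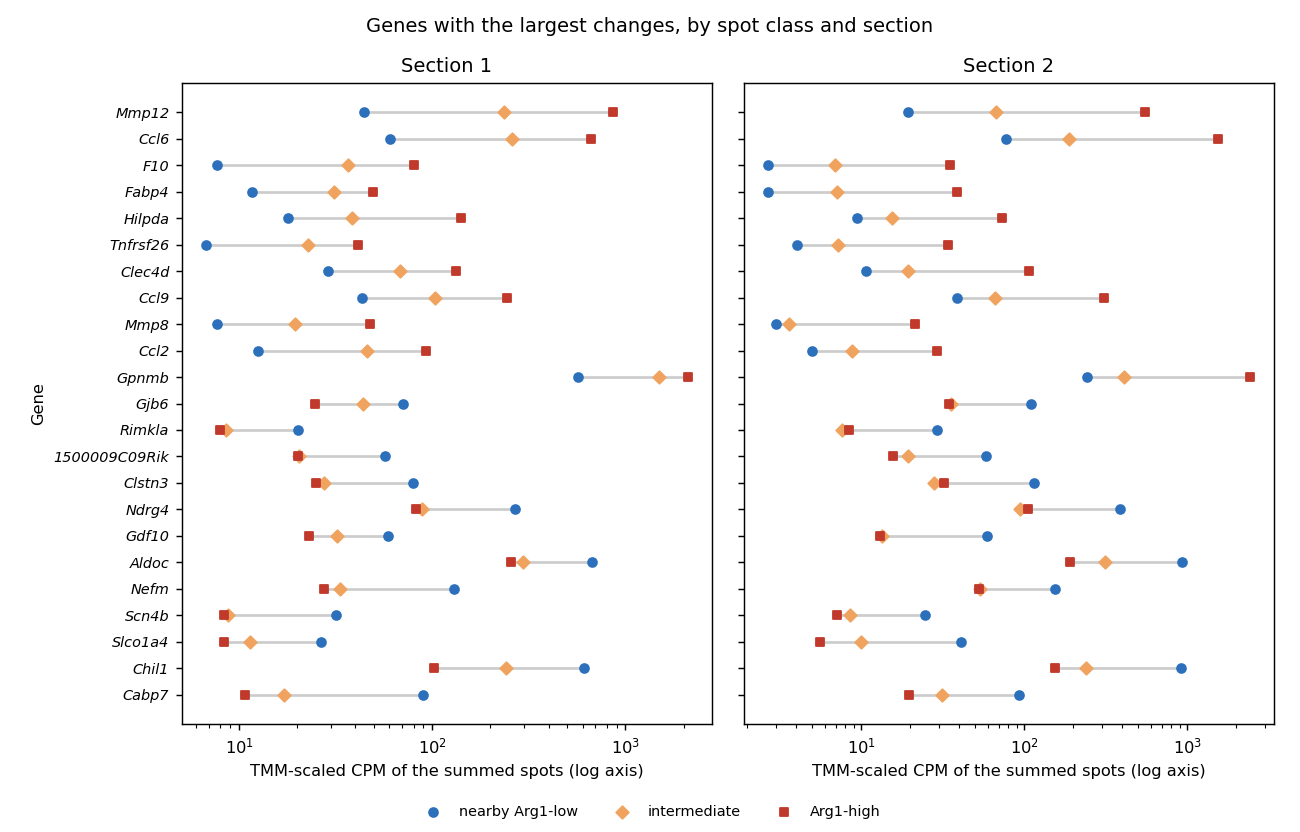
TMM-scaled CPM (log axis) of 11 of the 12 genes with the largest increase and the 12 with the largest decrease, with 1 point per spot class (summed spots) in each section. The 23 genes were picked for the same direction in both sections, so the nearby Arg1-low and Arg1-high points lie on the same sides by rule. For the genes that rose the intermediate spots lie between them.

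The number of changed genes depended on where the limits were drawn and on the block. Without the section as a block no gene changed (1259 had an unadjusted p below 0.05), with Arg1-high set at 500 CPM 1 changed, and with nearby Arg1-low spots taken up to 6 steps away none did (2096 below 0.05). With Arg1-high at 2000 CPM 875 genes changed. Scaling by library size alone, which moved the median of all genes to -0.12 on the log2 scale, gave 85 higher and 153 lower genes. A separate fit over 13024 genes compared the spots within neural-rich and within neural-poor tissue. Averaging its log2 fold changes, weighted by the tissue makeup of the Arg1-high spots, gave 262 higher and 48 lower genes.

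Among the 41 gene lists examined, that of lipid-loaded macrophages had the highest median. Of its genes 6 of 14 tested were higher and 0 lower, with a median log2 fold change of 2.06, beside a median of 0.02 for all genes tested. The section medians of this list were 1.67 and 2.30. Spp1, which encodes osteopontin, a phosphoprotein that binds integrins and CD44, had 12297 against 2807 CPM in section 1 and 15353 against 2066 in section 2 (log2 fold change 2.60 ± 0.47, adjusted p = 0.039). The lipid droplet coat Plin2 (2.45), lipoprotein lipase Lpl (2.09) and galectin-3, Lgals3 (2.07), rose with it, with adjusted p-values of 0.0134, 0.0207 and 0.0194. Trem2, the lipid receptor that gives such macrophages one of their names, had 387 against 213 CPM in section 1 and 361 against 123 in section 2 and did not pass (log2 fold change 1.26 ± 0.29, adjusted p = 0.0735). In the lysosome list 4 of 15 tested were higher and 0 lower, with a median log2 fold change of 0.99. Cathepsin L, Ctsl, had 3353 against 916 CPM in section 1 and 3058 against 658 in section 2 (log2 fold change 2.05 ± 0.32, adjusted p = 0.0243), and Ctsd (1.61), Ctsz (1.30) and the lysosomal acid lipase Lipa (1.66) also passed.

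The hypoxia and glycolysis genes gave a like picture, in which 6 of 14 tested were higher and 0 lower, with a median log2 fold change of 1.22, and the section medians were 1.25 and 1.16. Car9, the membrane carbonic anhydrase, had 53.3 against 8.09 CPM in section 1 and 111 against 27.5 in section 2 (log2 fold change 2.40 ± 0.41, adjusted p = 0.0374). Vegfa, the main growth factor of vessels, had 244 against 50.8 CPM in section 1 and 271 against 64.7 in section 2 (log2 fold change 2.19 ± 0.31, adjusted p = 0.0226). The glycolytic genes Hk2 (1.64) and Pgk1 (1.08), the mitophagy receptor Bnip3 (1.80) and the collagen hydroxylase P4ha1 (1.21) were the other 4 that passed. In section 2 Car9 was not limited to the edge: it had 127 CPM at 6 to 8 steps from the nearest Arg1-high spot, above the 107 CPM in those spots themselves, both unscaled, whereas in section 1 it fell to 8.64 CPM from 51.1 CPM. Within neural-poor tissue of section 2, distant spots also exceeded Arg1-high spots in Vegfa (305 against 210 unscaled CPM) and Pgk1 (354 against 348). The summed list did so too (3480 against 3225), whereas Hk2, Bnip3 and P4ha1 were lower in the distant spots. In section 1 the list had 1457 against 3401 CPM.

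Of the heme and iron genes, 1 of 12 tested was higher and 0 lower, with a median log2 fold change of 1.07. The one that passed was Slc40a1, the iron exporter ferroportin, with 46.9 against 13.9 CPM in section 1 and 67.4 against 28.2 in section 2 (log2 fold change 1.50 ± 0.27, adjusted p = 0.0334). Hmox1, heme oxygenase 1, had a larger difference with 2578 against 343 CPM in section 1 and 1703 against 159.6 in section 2, and missed the threshold (log2 fold change 3.15 ± 0.63, adjusted p = 0.0674). The 5 measured red cell genes summed to 56.1 against 22.1 CPM in section 1 and 284 against 107 in section 2, and 0 of 5 passed. Their part in the heme and iron values was not tested.

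Matrix proteases and their inhibitors were a further list with 6 changed genes, where 6 of 16 tested were higher and 0 lower, with a median log2 fold change of 1.20, and the section medians were 0.61 and 1.71. Beside Mmp12 and Mmp8 these were Mmp9, a gelatinase (1.70), the urokinase Plau (1.62) with its receptor Plaur (1.56), and the metalloprotease Adam8 with 918 against 182 CPM in section 1 and 513 against 75.8 in section 2 (log2 fold change 2.52 ± 0.34, adjusted p = 0.0207). Among chemokines and their receptors 9 of 26 tested were higher and 0 lower, with a median log2 fold change of 0.995, with section medians of 0.34 and 1.10. Beside Ccl6, Ccl9 and Ccl2, the genes Ccl7 (1.95), Ccl3 (1.98) and Ccl4 (1.77) and the receptor Ccr1 (1.72), to which several of these chemokines bind, were higher, as was platelet factor 4, Pf4 (2.50). Of the complement genes 2 of 11 tested were higher and 0 lower, with a median log2 fold change of 0.72, and those that passed were the receptors of the C3a and C5a peptides, C3ar1 (1.59) and C5ar1 (1.40). Cd274, which encodes the T cell inhibitor PD-L1, had 144 against 52.6 CPM in section 1 and 104 against 27.5 in section 2 (log2 fold change 1.74 ± 0.33, adjusted p = 0.0497).

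Macrophage markers moved with these genes. In the macrophage list 3 of 16 tested were higher and 0 lower, with a median log2 fold change of 0.83, and the summed level, given unscaled for this and other lists, was 10493 against 7106 CPM in section 1 and 7819.7 against 4086 in section 2. Cd68 had 1825 against 617 CPM in section 1 and 963 against 187 in section 2 (log2 fold change 2.01 ± 0.30, adjusted p = 0.0223), and the scavenger receptor Msr1 (1.99) and Cd14 (1.56) were the other members that passed. The receptor Csf1r, on which most macrophages depend, had 235 against 236 CPM in section 1 and 213 against 221 in section 2 (log2 fold change -0.03 ± 0.26, adjusted p = 0.977). No microglia gene passed: 0 of 9 tested were higher and 0 lower, with a median log2 fold change of -0.12. Tmem119 had 99 against 93.5 CPM in section 1 and 35 against 39.9 in section 2 (log2 fold change -0.05 ± 0.18, adjusted p = 0.943). P2ry12 had 31.8 against 47.2 CPM in section 1 and 25.5 against 39.6 in section 2 (log2 fold change -0.60 ± 0.23, adjusted p = 0.252). In the neutrophil list 2 of 9 tested were higher and 0 lower, with a median log2 fold change of 1.12. Its changed members were Mmp8 and the calprotectin subunit S100a8 (1.61), and the summed level was 176 against 81.3 CPM in section 1 and 166 against 106 in section 2. Macrophage and neutrophil transcripts were thus higher in the Arg1-high spots of both sections, and their part in the fold changes above was not tested.

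**Figure D3:**
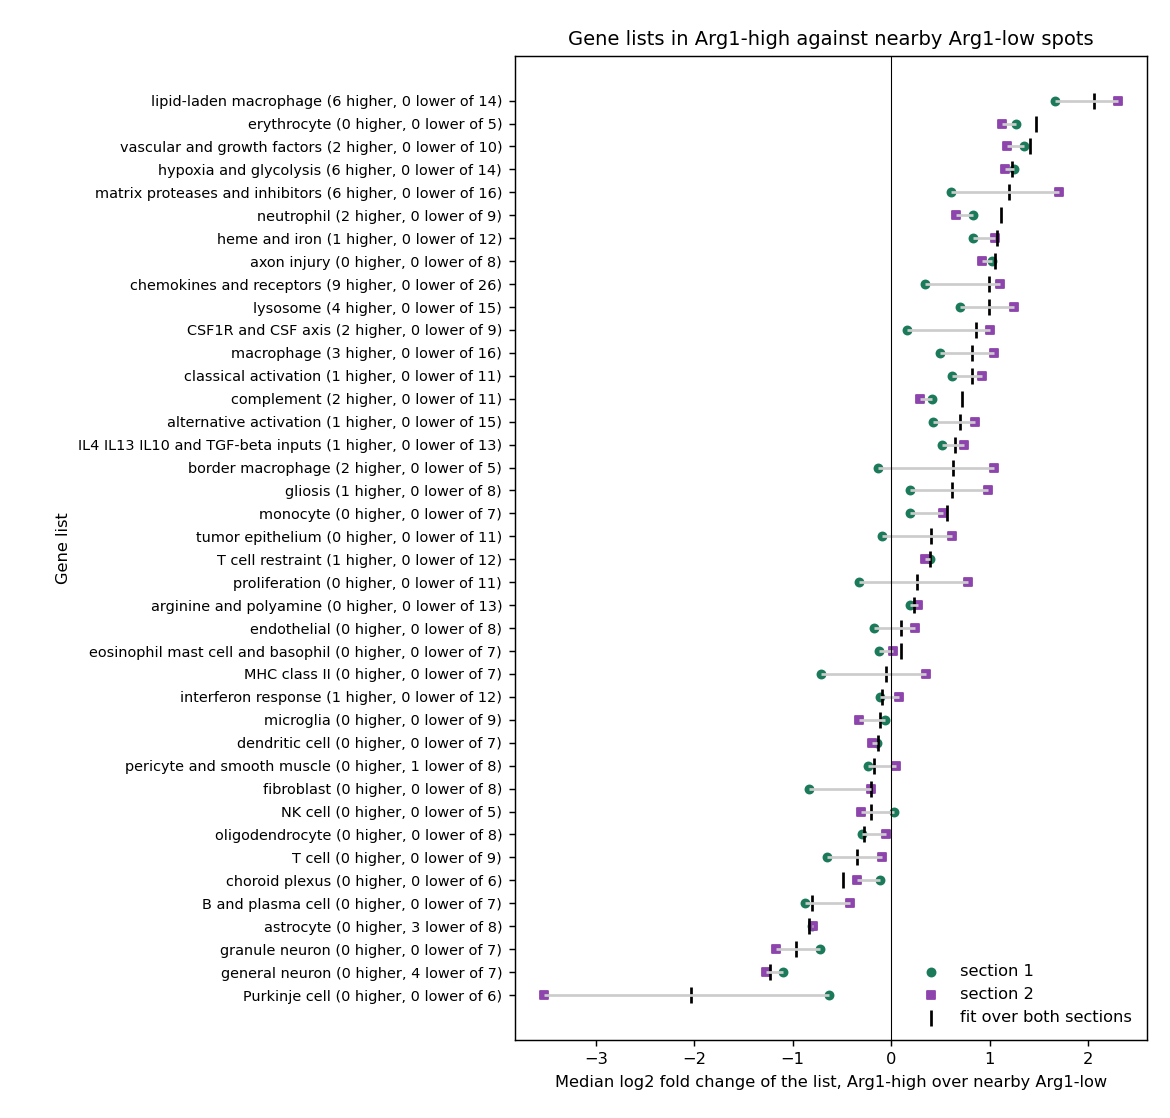
Median log2 fold change of each gene list with at least 5 tested genes, Arg1-high over nearby Arg1-low spots, from each section alone and from the fit over both, with the number of genes that passed beside each name. Genes of lipid-loaded macrophages lie highest at 1.67 and 2.30 in the sections, microglia genes lie near 0, and the general neuron list lies at -1.10 and -1.27.

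The lists of macrophage activation had 1 higher gene each, beside 0.8% of all genes tested. In the alternative activation list 1 of 15 tested was higher and 0 lower, with a median log2 fold change of 0.70, and the member that passed was the transglutaminase Tgm2 (1.63). Of these 15 genes, 12 had a positive fold change. The mannose receptor Mrc1 went different ways in the sections, with 24.7 against 31.9 CPM in section 1 and 73.2 against 35.2 in section 2 (log2 fold change 0.63 ± 1.01, adjusted p = 0.848). The hemoglobin scavenger receptor Cd163 had 1.59 against 1.8 CPM in section 1 and 3.83 against 8.38 in section 2 (log2 fold change -0.88 ± 0.56, adjusted p = 0.515). In the classical activation list 1 of 11 tested was higher and 0 lower, with a median log2 fold change of 0.82, and the member that passed was the prostaglandin synthase Ptgs2 (1.62). Of these 11 genes, 8 had a positive fold change. Nos2, which encodes the inducible nitric oxide synthase that shares arginine as its substrate, had 29.8 against 11.7 CPM in section 1 and 44 against 10.7 in section 2 (log2 fold change 1.72 ± 0.49, adjusted p = 0.141).

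Among the genes of the CSF1 receptor axis 2 of 9 tested were higher and 0 lower, with a median log2 fold change of 0.87, and among the inputs from IL4, IL13, IL10 and TGF-beta 1 of 13 tested was higher and 0 lower, with a median log2 fold change of 0.64. Il4 had 1 and 4 UMIs and Il13 3 and 4 UMIs in all Arg1-high spots of sections 1 and 2, too few to test. Il34, a ligand of Csf1r, had 21.1 against 37.3 CPM in section 1 and 35.2 against 35.5 in section 2 (log2 fold change -0.35 ± 0.33, adjusted p = 0.687). Unscaled, distant neural-poor spots had 74.1 and 66.5 Il34 CPM in sections 1 and 2, and distant neural-rich spots 25.9 and 22.1 CPM. In section 2 it was 31.3 against 20.8 CPM within neural-rich and 37.0 against 73.4 within neural-poor tissue. In section 1 it was 18.5 against 27.4 and 23.8 against 45.0 CPM. The other ligand, Csf1, had 35.8 against 31.9 CPM in section 1 and 26.4 against 17.1 in section 2 (log2 fold change 0.41 ± 0.22, adjusted p = 0.435). Neither ligand passed. Tgfb1 had 359 against 240.1 CPM in section 1 and 312 against 134 in section 2 and missed the threshold (log2 fold change 0.91 ± 0.19, adjusted p = 0.0538). Csf2, which encodes GM-CSF, passed with 7.55 against 1.35 CPM in section 1 and 12.3 against 2.35 in section 2 (log2 fold change 2.41 ± 0.43, adjusted p = 0.035). Its reference values lay near the floor. Nearby Arg1-low spots had 3.16 unscaled CPM in neural-rich and 0 in neural-poor tissue of section 1, and 2.24 and 3.19 in section 2. The transcription factor Cebpb, which controls many myeloid genes, had 617 against 218 CPM in section 1 and 439 against 142 in section 2 (log2 fold change 1.57 ± 0.16, adjusted p = 0.0109) and was the 1 input that passed. In the arginine and polyamine list, which leaves out Arg1, 0 of 13 tested were higher and 0 lower, with a median log2 fold change of 0.23. Arg2, the mitochondrial arginase, had 13.1 against 3.15 CPM in section 1 and 14.6 against 7.04 in section 2 (log2 fold change 1.47 ± 0.38, adjusted p = 0.093). Odc1, the enzyme that takes ornithine into polyamines, had 19.9 against 12.1 CPM in section 1 and 12.6 against 10.4 in section 2 (log2 fold change 0.49 ± 0.27, adjusted p = 0.441).

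Neuron and astrocyte genes were among those that fell. In the general neuron list 0 of 7 tested were higher and 4 lower, with a median log2 fold change of -1.23, and in the astrocyte list 0 of 8 tested were higher and 3 lower, with a median log2 fold change of -0.83. Cabp7, a neuronal calcium-binding protein, had 10.7 against 89.5 CPM in section 1 and 19.7 against 93.6 in section 2 (log2 fold change -2.61 ± 0.24, adjusted p = 0.0109). Chil1, a secreted chitinase-like protein of reactive astrocytes, had 102 against 614 CPM in section 1 and 155 against 918 in section 2 (log2 fold change -2.58 ± 0.34, adjusted p = 0.0198). The same direction in both sections was part of the rule that picked these genes. Slco1a4, an organic anion transporter of brain vessels, had 8.35 against 26.5 CPM in section 1 and 5.55 against 40.9 in section 2 (log2 fold change -2.34 ± 0.32, adjusted p = 0.0174). The neurofilament Nefm (-1.86), the sodium channel subunit Scn4b (-1.88), the neuronal genes Ndrg4 (-1.79) and Clstn3 (-1.75), the glial genes Aldoc (-1.83), Gdf10 (-1.81) and Gjb6 (-1.60), and Rimkla (-1.60) and 1500009C09Rik (-1.70) completed the 12 with the largest decrease. The pericyte gene Rgs5 fell as well, with 14.7 against 36.9 CPM in section 1 and 18.2 against 50.6 in section 2 (log2 fold change -1.41 ± 0.24, adjusted p = 0.0268). The decreases stand beside a shift in tissue: neuron genes summed to 620.0 against 1204 CPM in section 1 and 842 against 1909 in section 2.

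The remaining lists held at most 2 changed genes each, beside 0.8% of all genes tested that were higher and 0.723% that were lower. Among vascular and growth factor genes 2 of 10 tested were higher and 0 lower, with a median log2 fold change of 1.41, namely Vegfa and Areg. In section 2 the summed list had 2504 CPM in Arg1-high, 2017 in nearby Arg1-low, 4510 in intermediate and 2692 in distant spots. Within neural-poor tissue of section 2 it had 3002 CPM in Arg1-high, 4795 in nearby Arg1-low and 6426 in distant spots. In section 1 the list had 1694 CPM in Arg1-high, 626 in nearby Arg1-low and 389 in distant spots. Areg had 54.2 unscaled CPM in neural-poor Arg1-high spots of section 2 and 70.4 in distant ones. Each of the border macrophage, T cell restraint, interferon response and gliosis lists had 1 or 2 higher genes and none lower: F13a1 and Pf4, Cd274, Rsad2 and Cd44, with list medians of 0.63, 0.40, -0.09 and 0.62. Among inhibitory interneuron genes 1 of 4 was lower, Gad2, and among pericyte and smooth muscle genes 1 of 8, Rgs5. No gene passed in the lists of axon injury (median 1.05 over 8 genes), monocytes (0.57 over 7), tumor epithelium (0.41 over 11), proliferation (0.26 over 11), endothelium (0.11 over 8), MHC class II (-0.06 over 7), fibroblasts (-0.20 over 8), T cells (-0.34 over 9), B and plasma cells (-0.80 over 7), NK cells (-0.21 over 5), dendritic cells (-0.13 over 7), eosinophils, mast cells and basophils (0.10 over 7), choroid plexus (-0.49 over 6), oligodendrocytes (-0.28 over 8), granule neurons (-0.97 over 7) and Purkinje cells (-2.03 over 6). The T cell genes summed to 135 against 214 CPM in section 1 and 35 against 48.1 in section 2, and the MHC class II genes to 3782 against 6472 CPM in section 1 and 685 against 653 in section 2.

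In the intermediate spots decreases outnumbered increases. Against the same nearby Arg1-low spots, 23 genes (0.126% of those tested) were higher and 343 (1.88%) lower. Because the reference spots are shared, the values are only set side by side. Nefm was -1.74 on the log2 scale in the intermediate and -1.86 in the Arg1-high spots, and Snap25, a synaptic fusion protein, -1.59 and -1.23. The intermediate spots were 59.6% neural-rich in section 1 and 40.9% in section 2, the nearby Arg1-low spots 78.4% and 86.0%. Within neural-rich tissue Snap25 had 255, 453 and 1040 unscaled CPM in Arg1-high, intermediate and nearby Arg1-low spots of section 1. In section 2 it had 316, 489 and 1020 CPM. The part of tissue makeup in the decreases was not tested. Mmp12 was 2.18 (adjusted p = 0.114) and 4.53, Ccl6 1.75 (adjusted p = 0.0508) and 3.95, and Hilpda 0.92 (adjusted p = 0.118) and 2.96. None of these 3 passed in the intermediate spots. Lgals3 (1.35), Plau (1.32), Mmp9 (1.27), the growth factor Areg (1.36) and the syndecan Sdc1 (1.23) rose there. All were higher in distant neural-poor than in distant neural-rich spots of both sections. For Lgals3 these levels were 785 against 49.8 unscaled CPM in section 1 and 1062 against 81.4 in section 2. In section 2 Sdc1 had 286 CPM in intermediate against 78.6 in nearby Arg1-low spots within neural-rich tissue, and 869 against 767 within neural-poor tissue. The part of tissue makeup in these increases was not tested.

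Because the Arg1-high spots lay at a border of tissues, they were compared with nearby Arg1-low spots within neural-rich and within neural-poor tissue, over 13024 genes. The neural-poor reference was small, with 19 spots in section 1 and 20 in section 2. Within neural-rich tissue 1232 genes (9.46%) changed, 486 (3.73%) higher and 746 (5.73%) lower, and within neural-poor tissue 43 (0.33%) were higher and 1 (0.00768%) lower. The 1 lower gene was Igha, the constant part of IgA made by plasma cells, with 2.69 against 137 CPM in section 1 and 3.42 against 193 in section 2 (-5.80 ± 0.32, adjusted p = 0.00327), named here after its values were seen. The fold changes differed between the tissue classes for 645 genes (4.95%), more positive in neural-rich tissue for 134 (1.03%) and more negative for 511 (3.92%). The classes were cut by neural transcripts, and the part of that cut in these counts was not tested. With the tissue threshold set at the median spot, 9 genes changed within neural-rich tissue, 318 within neural-poor tissue and 0 in the difference, so which tissue had more changed genes turned around. Numbers in parentheses are log2 fold changes with their standard errors.

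A set of 9 genes (0.0691%) rose in both tissue classes, and none fell in both. Mmp12 had 1085 against 56.5 CPM in section 1 and 549 against 21.4 in section 2 within neural-rich tissue (4.44 ± 0.41, adjusted p = 0.00883) and 431 against 36.6 CPM in section 1 and 494 against 17.1 in section 2 within neural-poor tissue (4.25 ± 0.43, adjusted p = 0.0251). Hmox1 had 3032 against 573 CPM in section 1 and 1598 against 216 in section 2 within neural-rich tissue (2.63 ± 0.35, adjusted p = 0.00903) and 1808 against 161 CPM in section 1 and 1636 against 62.3 in section 2 within neural-poor tissue (4.13 ± 0.38, adjusted p = 0.0251). F10 had 86.1 against 7.79 CPM in section 1 and 36.3 against 3.14 in section 2 within neural-rich tissue (3.48 ± 0.28, adjusted p = 0.00883) and 75.5 against 8.24 CPM in section 1 and 29.1 against 2.01 in section 2 within neural-poor tissue (3.33 ± 0.32, adjusted p = 0.0251). In section 2 the nearby Arg1-low levels of F10 lay near the floor, with 3.37 and 2.13 unscaled CPM in neural-rich and neural-poor tissue. Mmp12, Hmox1 and F10 were picked for rising in both tissue classes, so the order of their class values follows from the choice.

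Others of the 9 were Adam8, Bnip3, Cd5l, which encodes a secreted inhibitor of macrophage apoptosis, Cd300lb, an activating receptor of myeloid cells, and Rnf128, a ubiquitin ligase. Their log2 fold changes within neural-rich and neural-poor tissue were 2.22 and 2.74 for Cd5l, 2.26 and 2.51 for Cd300lb, 1.95 and 2.35 for Rnf128, and 1.41 and 2.44 for Bnip3. Adam8, at 3.19 and 1.79, was the one of the 9 whose fold changes differed between the tissue classes (adjusted p = 0.0383). With the median threshold 5 genes rose in both classes, and 1 of the 9, Adam8, was among them. All 9 kept positive fold changes in both classes there.

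A set of 29 genes (0.223%), Snap25 among them, was lower in the Arg1-high spots within neural-rich tissue and higher in them within neural-poor tissue. Snap25 had 268 against 961 CPM in section 1 and 312 against 950.5 in section 2 within neural-rich tissue and 97 against 13.7 CPM in section 1 and 123 against 31.2 in section 2 within neural-poor tissue. Snap25 is 1 of the genes that set the tissue classes, so these values are a description and no test is given for it. The general neuron, granule neuron and Purkinje cell lists also set the tissue classes, so no pass counts are given for them. The part of this cut in the 29 opposite genes was not tested. Snap25 levels in the Arg1-high spots of both classes lay between those of the nearby Arg1-low spots of the 2 classes. With the median threshold none of the 29 was called in both classes.

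**Figure D4:**
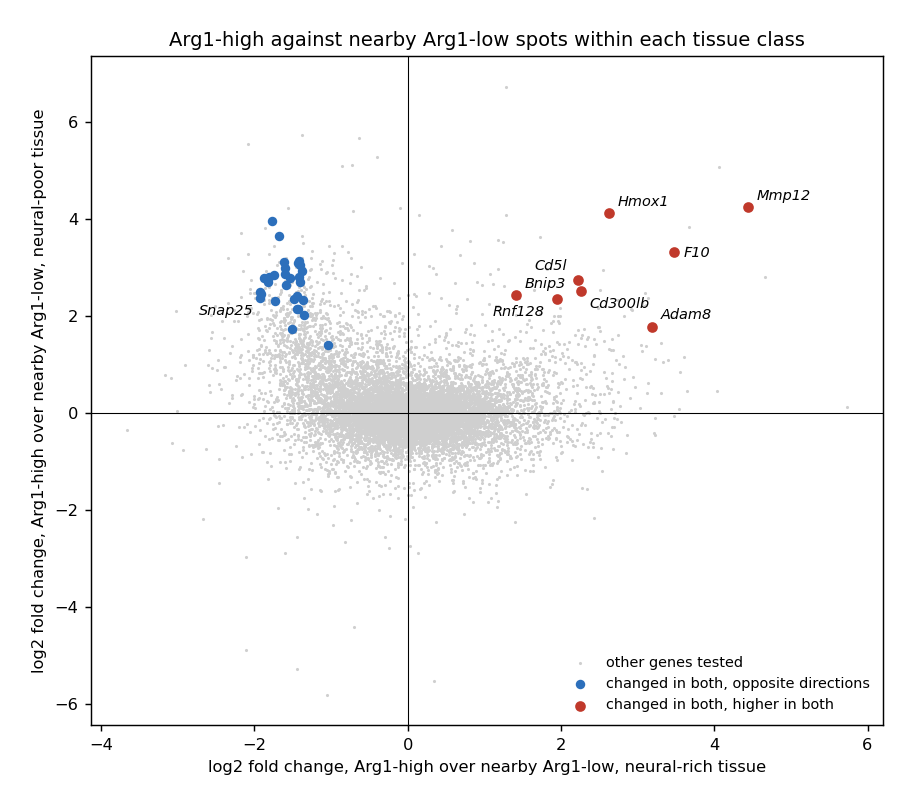
Log2 fold change of each gene in Arg1-high over nearby Arg1-low spots, within neural-rich tissue (horizontal) and neural-poor tissue (vertical). The 8 genes in red are those shown of the 9 that rose in both, Mmp12 among them at 4.44 and 4.25, and the 29 in blue were lower in the first and higher in the second.

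Within neural-rich tissue the tissue of the neighboring mass moved with the comparison, in a different form in each section. Fibroblast genes summed to 16024 against 1886 CPM in section 1 and 627 against 265 in section 2, and epithelial genes to 59.5 against 51.7 CPM in section 1 and 3909 against 778 in section 2. Krt8, an epithelial keratin, had 7.67 against 0.974 CPM in section 1 and 523 against 111 in section 2 (2.38 ± 0.30, adjusted p = 0.00903). In section 1 Krt8 lay near the floor, and distant neural-rich spots had 5.20 unscaled CPM. Epcam was lower there, at 7.30 against 9.49 unscaled CPM, and higher in section 2, at 595 against 111. Within neural-rich tissue Nos2 passed (2.18 ± 0.46, adjusted p = 0.0306), as did Tgfb1 (1.57 ± 0.25, adjusted p = 0.0143). The macrophage list summed to 11695 against 6053 CPM in section 1 and 9025 against 4811 in section 2. Within neural-poor tissue it summed to 7940.2 against 7896 CPM in section 1 and 6195 against 2713 in section 2. There 0 of 16 macrophage genes passed, beside 0.33% of all genes tested that were higher. The median log2 fold change of the list was 0.53 there, with 13 of 16 positive.

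The promoters of the genes that rose in both tissue classes are shown because these genes moved together across 2 kinds of tissue. RefSeq windows (GRCm38.p6, the mm10 assembly) were matched for 7 of the 9, and the 250 bases before the transcription start were searched on both strands for 4 motifs. The AP-1 motif TGANTCA was found in 1 of the 7 genes, Mmp12, beside 6.75% of 32851 windows of all genes. The C/EBP motif TTGCNNAA was found in 2, Mmp12 and Adam8, beside 9.56% of windows, the hypoxia core ACGTG in 2, Bnip3 and F10, beside 16.6%, and the antioxidant core TGACNNNGC in 1, Cd300lb, beside 10.2%. Mmp12 has 2 windows, since RefSeq gives it 2 starts, and its AP-1 and C/EBP matches lay in different windows. The window of the second start lies downstream of the first start. Capitals mark AP-1 or C/EBP matches in the following sequences, each of which reads 5′ to 3′ up to the base before the start.

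Mmp12, chr9:7347124-7347373, plus strand: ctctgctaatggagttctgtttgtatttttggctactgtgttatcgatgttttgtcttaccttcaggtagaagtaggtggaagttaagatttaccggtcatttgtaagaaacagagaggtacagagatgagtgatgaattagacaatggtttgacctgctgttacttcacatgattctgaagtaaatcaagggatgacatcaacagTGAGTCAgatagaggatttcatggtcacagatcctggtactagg
Mmp12, chr9:7344147-7344396, plus strand: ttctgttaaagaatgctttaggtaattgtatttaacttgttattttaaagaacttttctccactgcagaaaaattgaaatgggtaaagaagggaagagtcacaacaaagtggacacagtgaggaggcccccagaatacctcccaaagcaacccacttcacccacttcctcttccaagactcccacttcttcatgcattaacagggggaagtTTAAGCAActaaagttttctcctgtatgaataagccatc
Adam8, chr7:139992563-139992812, minus strand: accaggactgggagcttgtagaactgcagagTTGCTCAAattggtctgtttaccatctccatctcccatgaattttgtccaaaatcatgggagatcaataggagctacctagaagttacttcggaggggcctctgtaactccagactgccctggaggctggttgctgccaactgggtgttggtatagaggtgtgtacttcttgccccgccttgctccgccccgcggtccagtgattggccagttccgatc

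To set the Arg1-high spots beside tissue rich in macrophage transcripts, their neural-rich members were compared with neural-rich spots anywhere in the section. These reference spots had fewer than 100 Arg1 CPM and a summed macrophage list at or above the lower quartile of the Arg1-high spots. This comparison was chosen after the values above were seen, and the macrophage list chose the reference spots. There were 42 such spots in section 1 and 451 in section 2, against 97 and 163 Arg1-high spots. The reference spots had median macrophage sums of 10374 and 5912 CPM, below the 12216 and 7536 CPM of the Arg1-high spots. Their median depth was also lower, at 10410.5 and 9805 UMIs against 16939 and 17341. They lay a median of 4 and 7 steps from the nearest Arg1-high spot, with 17 and 81 of them within 3 steps. Of 18184 genes tested, 1023 (5.63%) had an adjusted p below 0.05 and 919 (5.05%) changed. Of the latter, 447 (2.46%) were higher and 472 (2.6%) lower in the Arg1-high spots. With the minimum set at the median instead of the lower quartile, the reference medians were 13163 and 8564 CPM, and 289 of 17767 genes tested changed.

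Pf4 had 205 against 25.5 CPM in section 1 and 215 against 18.3 in section 2 (log2 fold change 3.32 ± 0.27, adjusted p = 0.00373). Plau had 214 against 29.4 CPM in section 1 and 155 against 22 in section 2 (log2 fold change 2.85 ± 0.20, adjusted p = 0.00333). Ccl6 had 812 against 133 CPM in section 1 and 1267 against 65.7 in section 2 (log2 fold change 3.48 ± 0.43, adjusted p = 0.0109). F10 (log2 fold change 3.39 ± 0.48, adjusted p = 0.0116), Lgals3 (log2 fold change 3.17 ± 0.34, adjusted p = 0.00619) and Spp1 (log2 fold change 2.81 ± 0.58, adjusted p = 0.0393) also passed, whereas Mmp12 (log2 fold change 4.58 ± 1.04, adjusted p = 0.0682) and Hmox1 (log2 fold change 2.63 ± 0.66, adjusted p = 0.0825) did not. Plau and Lgals3 were also high in distant neural-poor tissue. There Plau had 96.3 and 114 unscaled CPM in sections 1 and 2, beside 6.37 and 9.58 in distant neural-rich spots. Lgals3 had 785 and 1062 CPM there, beside 49.8 and 81.4. The macrophage receptor Csf1r is on the macrophage list that chose the reference spots. Its 257 against 451 CPM in section 1 and 248 against 422 in section 2 are therefore a description.

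Microglia genes pointed the other way, in a comparison whose reference was picked by macrophage transcripts. The reference spots also held more P2ry12 and Tmem119 than distant neural-rich spots did. The latter had 45.7 and 56.5 P2ry12 CPM and 20.0 and 29.4 Tmem119 CPM, unscaled, in sections 1 and 2, below the reference values that follow. How far that choice shaped the decreases of microglia genes was not tested. Of the microglia genes 0 of 9 tested were higher and 3 lower, with a median log2 fold change of -1.42. P2ry12 was among them with 39.9 against 133 CPM in section 1 and 34.3 against 93.5 in section 2 (log2 fold change -1.58 ± 0.23, adjusted p = 0.0125), whereas Tmem119 did not pass with 89.6 against 74.6 CPM in section 1 and 39.5 against 70.0 in section 2 (log2 fold change -0.47 ± 0.40, adjusted p = 0.571). Of the classical activation genes 4 of 11 tested were higher and 0 lower, with a median log2 fold change of 1.35. Nos2 was among them with 36.4 against 3.92 CPM in section 1 and 37.6 against 7.21 in section 2 (log2 fold change 2.99 ± 0.59, adjusted p = 0.0289). It was not particular to the Arg1-high spots in section 2. Distant neural-poor spots there had 64.7 unscaled CPM, beside 49.9 in neural-poor and 36.4 in neural-rich Arg1-high spots. In section 1 the distant neural-poor spots had 9.44 unscaled CPM, beside 14.3 and 35.4. Of the alternative activation genes 1 of 16 tested was higher and 0 lower, with a median log2 fold change of 0.46. Epithelial genes were higher here too, where 6 of 11 tested were higher and 0 lower, with a median log2 fold change of 2.53. In these neural-rich Arg1-high spots they summed to 59.5 CPM in section 1 and 3909 CPM in section 2. The fibroblast genes summed to 16024 CPM in section 1 and 627 CPM in section 2 in the same spots. The part of epithelial and fibroblast genes in the other differences was not tested.

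With distance from the Arg1-high spots the levels fell at different rates. The following values are unscaled CPM of all spots at a given distance. In section 1 Mmp12 went from 824 CPM in the Arg1-high spots to 341, 184 and 67.9 CPM at 1, 2 and 3 steps and 4.84 CPM at over 8 steps. In section 2 it went from 531 CPM to 91.7, 44.4 and 37.5 CPM and then 5.89 CPM. The step next to the Arg1-high spots thus held 41.4% of their Mmp12 level in section 1 and 17.3% in section 2.

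Hmox1 went from 2474 to 1249 CPM over the first step in section 1 and from 1629 to 349 CPM in section 2. Spp1 was at 4336 and 1926 CPM 3 steps away, beside 11801 and 14686 CPM in the Arg1-high spots. In section 1 the level at 3 steps was near the 4680 CPM of distant neural-poor spots, whereas distant neural-rich spots had 371 CPM. In section 2 the distant neural-poor and neural-rich spots had 1080 and 854 CPM. The macrophage list fell less than these genes: it was 10493 CPM in the Arg1-high spots and 8054 CPM at 6 to 8 steps in section 1, and 7819.7 and 2467 CPM in section 2. Tmem119 stayed between 75.5 and 101 CPM in section 1 and between 23 and 34.3 CPM in section 2. Mean depth and tissue also change with distance, so the profiles are descriptions.

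**Figure D5:**
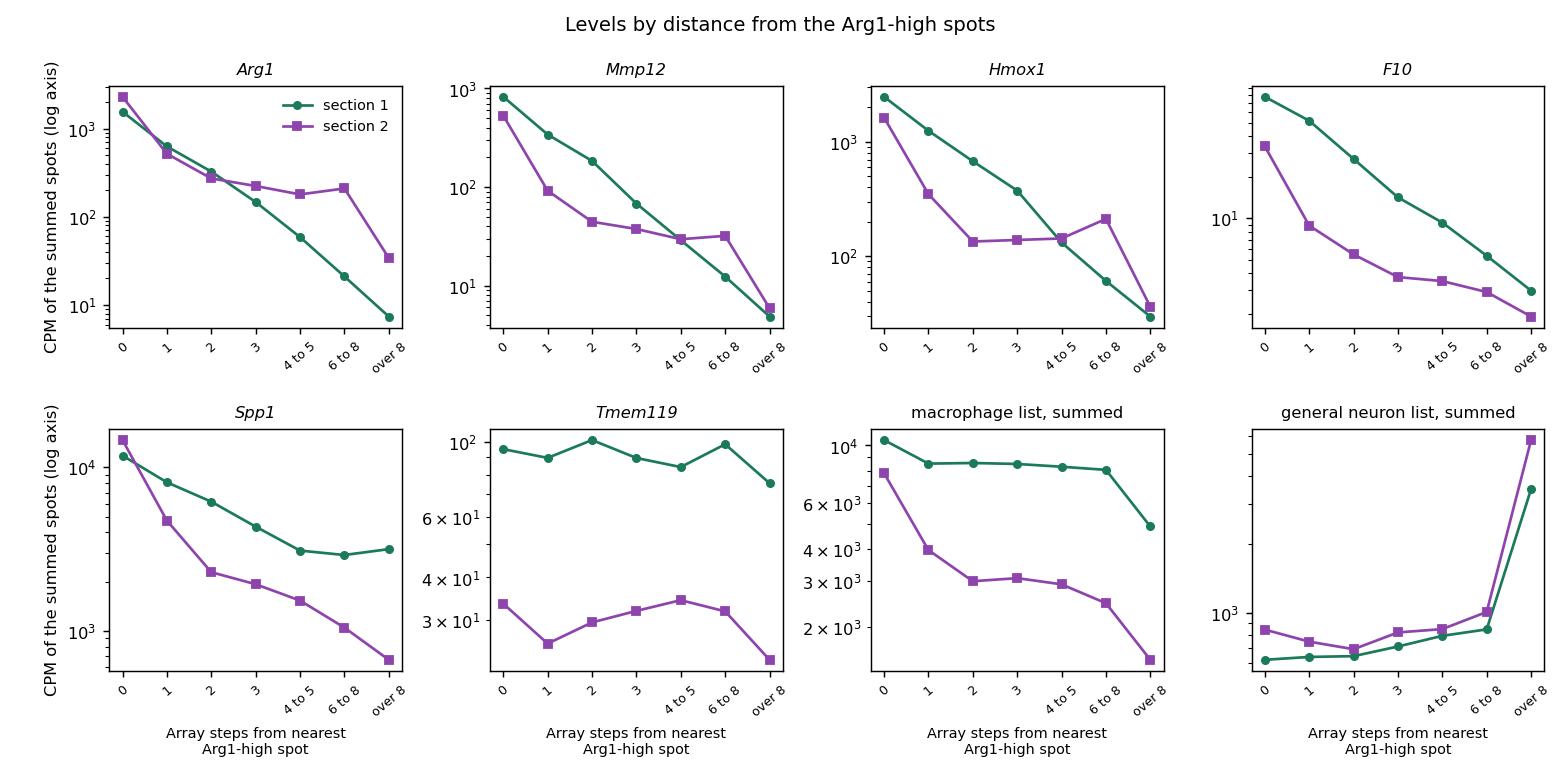
Unscaled CPM (log axis) of the summed spots by number of array steps from the nearest Arg1-high spot, for 6 genes, the macrophage list and the general neuron list in each section. Mmp12, Hmox1 and F10 fall within a few steps, the macrophage list changes less, and Tmem119 stays between 75.5 and 101 CPM in section 1 and 23.0 and 34.3 CPM in section 2.

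The Arg1-high spots were not all alike. Among connected groups of at least 8 spots, 4 in section 1 and 7 in section 2, the summed Mmp12 level ranged from 558 to 1473 CPM in section 1 and from 141 to 1111 CPM in section 2. The largest group of section 2, with 71 spots and the highest single Arg1 value, had the lowest Mmp12. Its Arg1 level was 2619 CPM and that of the second group 2469.6 CPM, whereas their macrophage sums were 6025 and 14399 CPM.

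The third group of section 2, with 42 spots, was 28.6% neural-rich, beside 71.8% and 72.7% in the first 2 groups. It had the highest Arg1 level at 2902 CPM, the highest Mrc1 at 127 CPM and the highest Ccl6 at 2878 CPM of the 11 groups, with a microglia sum of 561 CPM, the lowest of them. Hmox1 ranged over the groups from 924 to 3452 CPM. Within the Arg1-high spots, Spearman's rho of a gene's CPM with Arg1 CPM, over 122 and 249 spots that share their library and depth, was 0.12 and 0.61 for Ccl6, 0.23 and 0.42 for Hmox1, 0.38 and 0.49 for Spp1 and -0.03 and -0.10 for Car9.

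Against the distant spots, which include brain and mass alike, 1647 genes (9.03%) changed, 686 (3.76%) higher and 961 (5.27%) lower in the Arg1-high spots. This comparison shares the Arg1-high spots with the first. Of the genes of lipid-loaded macrophages 13 of 14 tested were higher and 0 lower, with a median log2 fold change of 2.83, and of the macrophage genes 11 of 16 tested were higher and 0 lower, with a median log2 fold change of 1.48. Spp1 (log2 fold change 3.11, adjusted p = 0.005), Trem2 (log2 fold change 2.24, adjusted p = 0.00235) and Hmox1 (log2 fold change 4.76, adjusted p = 0.00625) passed here.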

How the data were processed

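Probe-based spatial RNA libraries (Visium CytAssist, FFPE, mouse probes) were made from 2 sections of 5 µm on capture areas of 6.5 mm. The authors deposited raw UMI counts per gene and spot from Space Ranger 2.1.1 with mm10, the version and build being those in the submitters' processing notes. The regions of interest and the spot filter that the authors applied later are not used here. The 3406 and 4017 spots under tissue had medians of 9734 and 12390 UMIs, and spots with fewer than 2000 were left out.

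Counts were summed over spots into 8 libraries, 2 sections by 4 spot classes, and tested with edgeR 4.0.16 (R 4.3.3) by the quasi-likelihood test with robust dispersions, TMM scaling, filterByExpr, and Benjamini-Hochberg adjustment over all genes tested. Spots are not replicates. The section was the block because the classes of a section come from the same mouse, which left 3 residual degrees of freedom. With the block the common dispersion was 0.0291 and without it 0.16. Arg1 was taken out before the adjustment. In the tissue comparison 8 libraries combined section, Arg1-high or nearby Arg1-low, and tissue class. Limma 3.58.1 and DESeq2 1.42.0 served as alternatives. Counts of 18246 genes were simulated from the fitted dispersions for the comparison of Arg1-high with nearby Arg1-low spots. Each gene had 1 section shift shared by all classes, and only genes with a mean of at least 20 CPM were given changes. Of these the test called 55% of those changed by 1 on the log2 scale and 99% of those changed by 2. A call there meant an adjusted p below 0.05 alone, without the 2-fold limit that defines a changed gene. False calls were 0.0776% of the unchanged genes. Recovery at lower levels, and fold changes that differ between sections, were not simulated.

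The genes named were 12 per direction, ranked by fold change among changed genes with at least 20 CPM in the higher class and the same direction in both sections, members of fixed lists as examples, and a fixed set around Arg1 and its inputs. One gene that this rule names is not reported here. Members and lists were chosen with earlier results of these data known. Of 405 genes on 41 lists, 15 were not measured here. Promoter windows came from a RefSeq table of GRCm38.p6.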

Additional observations from a re-analysis of the deposited data

Results flagged for a closer look

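Between neural-rich and neural-poor tissue, 645 genes differed in their fold change from nearby Arg1-low to Arg1-high spots by the interaction test of edgeR. The number was 0 with the median tissue threshold and 309 with no replicate block. Of the genes with the largest decrease over all spots, 4 were among them. The log2 fold change within neural-rich tissue minus that within neural-poor tissue was -4.17 for Nefm, -3.90 for Chil1, -3.68 for Ndrg4 and -3.35 for Clstn3. For Nefm the log2 fold change was -2.26 within neural-rich and 1.91 within neural-poor tissue. Nefm is 1 of the neuron genes from which the tissue classes were cut, so its values are a description shaped by that split. The neural-poor reference comprised 19 and 20 spots.

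Arg1 was also counted in spots under tissue that were left out for having fewer than 2000 UMIs. They held 14 Arg1 UMIs in 242 spots of section 1 and 16 in 115 spots of section 2, and 3 and 1 of these spots lay at or above 1000 CPM. No control section was there to set a background for them.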

How the results depend on the processing

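The section block set most counts of changed genes. With no replicate block, 0 genes changed between Arg1-high and nearby Arg1-low spots in place of 278 (1259 had an unadjusted p below 0.05), 0 between intermediate and nearby Arg1-low spots in place of 366 (1528), 95 against distant spots in place of 1647, 0 within neural-rich tissue in place of 1232 (2438), 0 within neural-poor tissue in place of 44 (930), 309 in the difference between tissue classes in place of 645 and 11 against macrophage-rich Arg1-low spots in place of 919, and 0 genes were called in both tissue classes. DESeq2 gave more in the first (578), the second (698), neural-poor tissue (181) and the macrophage-rich comparison (1394), with 45 genes higher in both tissue classes in place of 9 and 87 opposite in place of 29. Without the filter on low counts 172, 127 within neural-poor tissue, 23 higher in both and 75 opposite were found.

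For Arg1-high against nearby Arg1-low spots, a fit of only the 2 classes gave 774 genes and of the 2 classes of the macrophage-rich comparison 1806, a minimum of 500 Arg1 CPM gave 1, of 2000 CPM 875, a reach of 1 step 529, of 6 steps 0 (2096 with an unadjusted p below 0.05), and limma on the mean of spot CPM 1561. With the median tissue threshold 9 genes changed within neural-rich tissue, 318 within neural-poor tissue and 0 in their difference (935 unadjusted), 5 were higher in both and 0 opposite. A median macrophage minimum gave 289. At 2000 CPM 95% of the Arg1-high spots of section 1 were neural-rich in place of 79.5%, and at 500 CPM 56.4% in section 2 in place of 65.5%.

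Of 74 named genes that changed, none reversed under any setting, 74 passed under DESeq2, 72 with RLE size factors, 1 at 500 CPM and 0 with no replicate block or 6 steps. Of the named genes that did not pass, Il34 turned to 0.22 at 2000 CPM and 1.16 at 1 step on the log2 scale, Csf1r to 0.20 at 2000 CPM and 0.0032 with spots of at least 5000 UMIs, Tmem119 to 0.0026 with no replicate block, 0.15 at 2000 CPM and 0.47 at 1 step, and Krt8 to -0.25 at 6 steps. The values at 1 step rest on 5 and 10 nearby Arg1-low spots in sections 1 and 2, beside a median of 0.325 over all genes. Leaving out either section left no residual degrees of freedom, so those fits give values with no test. The number of mice, 2, limits every test here. The causes of these changes were not tested.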
